A study of Drosophila melanogaster with 12 samples.

Results

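The genes described here encode the enzymes that methylate lysine 9 of histone H3 (H3K9), the heterochromatin protein 1 (HP1) proteins that read this mark, and factors that work with them in Drosophila melanogaster. They are the 10 genes egg, wde, Su(var)3-9, G9a, HP1a, HP1b, HP1c, Su(var)2-10, sov and Su(var)3-3, chosen by name, out of 16776 genes in the table, and all 10 were among the 12556 genes with enough reads to be tested. HP1a is a RefSeq synonym of that gene's symbol in the table, a Su(var) name under which the plots show it. The values of the 10 genes come from chromatin immunoprecipitation followed by sequencing (ChIP-seq) with an antibody against Egg in ovarian somatic cells (OSCs), a cultured line derived from the somatic cells of the fly ovary. Each value is therefore an amount of DNA of a gene, in the input chromatin or recovered with the Egg antibody, and not the expression of that gene.

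Egg, the fly SETDB1, methylates H3K9, and Windei, the product of wde, is the cofactor that stabilises Egg and takes part in its nuclear localisation. In OSCs the Argonaute protein Piwi, guided by piRNAs, directs Egg to transposon copies, where the methylated histone tail is bound by HP1a, the main HP1 of heterochromatin. A SUMO ligase, encoded by Su(var)2-10, links the piRNA machinery to Egg and Windei.

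Every group was a knockdown of 4 days followed by crosslinking with formaldehyde. The siEGFP group was the control, with EGFP as the target, and the siEgg group was depleted of Egg. The labels list 12 samples in 8 groups, with 2 samples in each input and Egg ChIP group of siEGFP and siEgg, and further groups for Piwi and Windei knockdowns that were not analysed here. The table had 1 column for each siEGFP and siEgg group, without a replicate number, so a column (called a library here) may be 1 sample or a pool of both, and there is no spread between replicates.

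The libraries held 2183061 reads in the siEGFP input, 2293964 in the siEgg input, 1796866 in the siEGFP ChIP and 1698148 in the siEgg ChIP. The 10 genes together had 535 and 611 input reads and 491 and 415 ChIP reads in siEGFP and siEgg. At this depth each ratio is given with a 95% interval that covers counting error only, comparisons are between libraries, and no p-values were computed. A gene was called enriched or depleted, or its change was called, when the log2 value was at least 1 in size (2-fold) and its interval excluded 0. Since these are DNA reads, neither the depletion of egg nor the identity of the cells could be checked against expression.

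In siEGFP cells the Egg ChIP was enriched over input at 1 of the 10 genes, HP1c, and none was depleted, where the same rule called 5.69% of all genes tested enriched and 7.69% depleted. In siEgg cells none of the 10 was enriched or depleted (1.31% and 1.17% of all genes). No change between siEGFP and siEgg was called among the 10, against 3.39% of all genes called lower and 5.12% called higher in siEgg. Of all changed genes 39.9% were lower, and 75.6% after ratios were centred on the median gene. With 10 genes, these shares amount to less than 1 gene each, so the counts do not set the group apart from other genes.

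**Figure D1:**
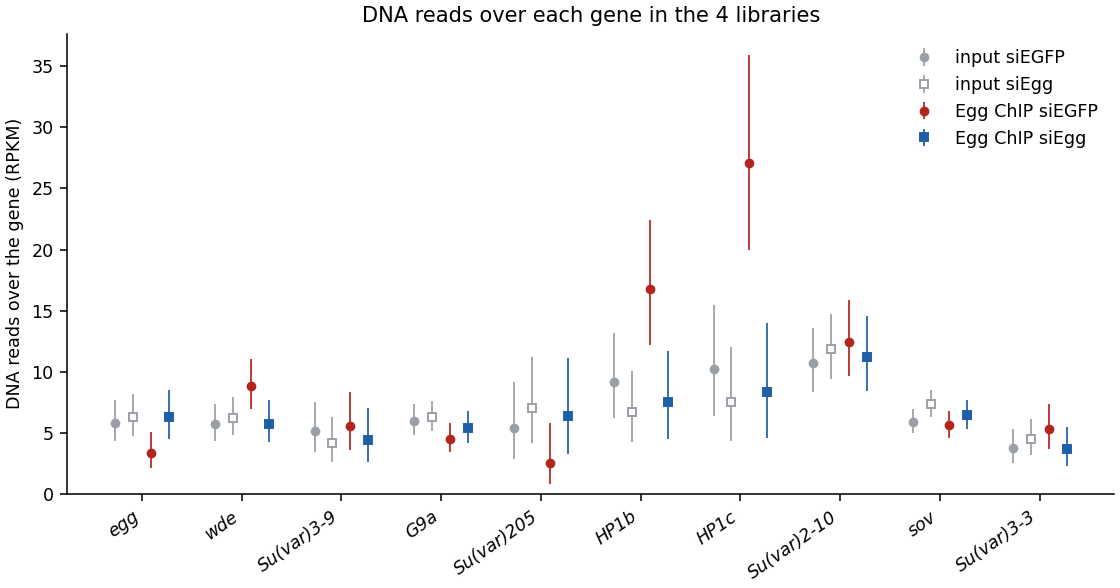
DNA reads over each of the 10 genes (y axis, RPKM, reads scaled to the length of the longest row and to library depth) in the siEGFP and siEgg inputs and Egg ChIPs; bars are exact Poisson 95% intervals of the count. HP1c and HP1b stand out through the siEGFP ChIP, at 27.1 and 16.8 RPKM, while their siEgg ChIP values, 8.36 and 7.49, lie near the inputs.

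Among the readers of the mark, HP1c, which encodes an HP1 paralogue known mainly from euchromatin, had 22 and 17 input reads in siEGFP and siEgg and 48 and 14 ChIP reads. The siEGFP ChIP was the high library of the 4, at 27.1 RPKM, and its interval did not overlap that of the siEgg ChIP. HP1c lies at 3R:22745620-22746605 (dm6), and its single row of 986 bases spans the whole gene. The log2 ratio of ChIP to input was 1.36 (0.65 to 2.21) in siEGFP, which is 2.56-fold, and 0.14 (-0.98 to 1.26) in siEgg. Of all genes tested, 96.6% had the same or a lower ratio in siEGFP, and 67.1% in siEgg. The difference between the knockdowns, -1.21, had an interval of -2.45 to 0.02 and so just missed a call. It met the rule with 4 alternatives: a pseudocount 10 times smaller (-1.25), centring on the median gene (-1.47), scaling by a trimmed mean (-1.49) and both inputs pooled (-1.63). With pooled inputs the input cancels from the change, so the ChIP reads compared without inputs gave the same value, -1.63 (-2.67 to -0.81). The change stayed uncalled with the larger pseudocount, without the read filter and with the 1.5-fold threshold.

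HP1b, another HP1 paralogue found in euchromatin and heterochromatin, had 30 and 23 input reads and 45 and 19 ChIP reads, at X:9081063-9082746. As for HP1c, the siEGFP ChIP was the high library. Its log2 ratio was 0.83 (0.17 to 1.58) in siEGFP and 0.15 (-0.80 to 1.10) in siEgg, an uncalled difference of -0.68 (-1.77 to 0.41). The siEGFP ratio passed 2-fold after centring (1.12), with the trimmed mean (1.14) and with pooled inputs (1.03), and with pooled inputs the change was called as well, at -1.10 (-1.87 to -0.34). The 3 rows of HP1b had siEGFP ratios of 0.68, 0.70 and 0.90, but in siEgg they had 0.62, -0.75 and 1.05, so only 1 of the 3 rows was lower in siEgg by more than 0.1 on the log2 scale. With 3 to 21 reads per row and library, every interval of a single row included 0.

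HP1a, whose protein binds methylated H3K9 and compacts heterochromatin, had 13 and 18 input reads and 5 and 12 ChIP reads, at 2L:8209626-8211122. Here the siEGFP ChIP was the low library, opposite to HP1b and HP1c. The log2 ratios were -0.94 (-2.94 to 0.48) and -0.14 (-1.34 to 0.98), and with 48 reads in all 4 libraries together this gene had the widest interval of change, 0.80 (-0.96 to 2.57). In siEGFP the ratio of HP1a lay below that of HP1c by 2.30 on the log2 scale (interval -4.01 to -0.80) and below that of HP1b by 1.77 (-3.45 to -0.30), while HP1b and HP1c did not differ beyond counting error, by 0.53 (-0.45 to 1.51) with HP1c higher. The 3 HP1 genes summed had 65 and 58 input reads and 98 and 45 ChIP reads.

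**Figure D2:**
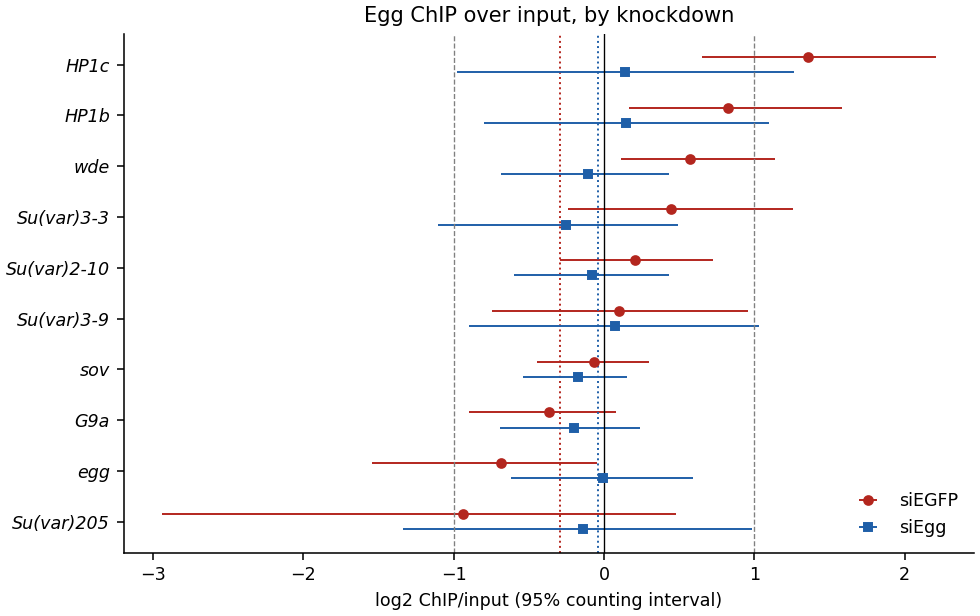
Log2 ratio of Egg ChIP to input (x axis) for each of the 10 genes, ordered by the siEGFP value, in siEGFP (circles) and siEgg (squares); bars are exact 95% counting intervals, dotted lines the medians of all genes tested in the same colours and dashed lines the 2-fold limits. In siEGFP the values run from -0.94 at HP1a to 1.36 at HP1c, and in siEgg from -0.25 to 0.15.

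Of the methyltransferase genes, egg itself had 50 and 57 input reads and 24 and 42 ChIP reads over its single row of 3937 bases, at 2R:24775534-24779901. The siEGFP ChIP was the low library, below its own input. The log2 ratio was -0.68 (-1.54 to -0.05) in siEGFP, short of the 2-fold limit, and -0.01 (-0.62 to 0.59) in siEgg, an uncalled difference of 0.68 (-0.22 to 1.58). An interval below 0 is common in these libraries: in siEGFP it was found for 18.7% of all genes tested. The ratio of egg lay below those of 5 of the other 9 genes in siEGFP, namely HP1c, HP1b, wde, Su(var)3-3 and Su(var)2-10. However, the antisense gene asRNA:CR44067 overlaps egg over 4191 bases of its span and had 1 input and 21 ChIP reads in siEGFP. Reads in shared sequence could have been divided between both, so the values of egg and its place among the 10 are uncertain.

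The Egg cofactor gene wde, at 2R:10800420-10808938, went with HP1b and HP1c in having its highest value in the siEGFP ChIP. It had 60 and 69 input reads and 76 and 47 ChIP reads. Its log2 ratio was 0.57 (0.11 to 1.13) in siEGFP and -0.11 (-0.69 to 0.44) in siEgg, an uncalled difference of -0.68 (-1.40 to 0.04). In siEGFP the ratio of wde exceeded that of egg by 1.26 on the log2 scale (0.53 to 2.23), a difference that rests on the uncertain value of egg.

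Su(var)3-9, the methyltransferase of pericentromeric heterochromatin, had 27 and 23 input reads and 24 and 18 ChIP reads. All 4 libraries were alike within counting error, with ratios of 0.10 (-0.75 to 0.96) and 0.07 (-0.90 to 1.03). The gene, at 3R:15259864-15263458, lies wholly within the span of eIF2gamma, a translation initiation factor gene with which it shares 5′ exons, so reads in shared sequence could have been divided between both, and the values of both are uncertain. eIF2gamma had -0.43 in siEGFP and 0.39 in siEgg. G9a, a methyltransferase acting mainly outside pericentromeric heterochromatin, at X:245978-254650, had more reads, 95 and 104 in the inputs and 59 and 66 in the ChIPs. Its ratios were -0.36 (-0.90 to 0.08) and -0.20 (-0.69 to 0.24), close to each other and near the median of all genes in siEGFP.

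The factors around Egg and the demethylase gene showed no call either. Su(var)2-10, at 2R:9116122-9122000, is represented by 14 rows that divide its reads, and summed to 69 and 80 input reads and 66 and 56 ChIP reads. Its log2 ratios were 0.21 (-0.29 to 0.73) and -0.08 (-0.60 to 0.43). The gene sov encodes a large zinc finger protein that associates with HP1a and is needed for heterochromatin in the ovary. It is the longest of the 10, at X:6756322-6770712, and the most deeply covered, with 139 and 182 input reads and 109 and 118 ChIP reads. Its ratios were -0.06 (-0.45 to 0.30) and -0.18 (-0.54 to 0.15). The change of the summed reads, -0.11, had the narrowest interval of the 10 (-0.60 to 0.38), but the 3 rows of sov that make up this sum had unlike values. The longest row had 38 and 81 input reads and 53 and 44 ChIP reads, with ratios of 0.59 (0.13 to 1.40) in siEGFP and -0.37 (-1.01 to 0.10) in siEgg, a change of -0.96 (-1.76 to -0.16). Another row went the other way in siEGFP, at -0.59 (-1.48 to -0.10), and had 0.22 in siEgg. Its inputs moved the other way too, with 58 reads in siEGFP and 41 in siEgg. The rows of sov have similar lengths, 10329, 10332 and 10768 bases, and reads in shared sequence could have been divided between them. The values of single sov rows are therefore uncertain and are not read as different Egg signal along the gene.

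Su(var)3-3, at 3L:20226381-20230250, encodes the fly LSD1, which removes methyl groups from lysine 4 of histone H3 and so clears a mark of active chromatin. It had 30 and 38 input reads and 35 and 23 ChIP reads. The ratios were 0.44 (-0.24 to 1.26) and -0.25 (-1.10 to 0.49), an uncalled difference of -0.70 (-1.71 to 0.32).

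The ratios of the 10 genes were more spread out in siEGFP than in siEgg. Their log2 ratios had a standard deviation (SD) of 0.70 over the 10 genes in siEGFP and 0.14 in siEgg, where all genes tested had 0.75 and 0.48. Even sov, the most deeply covered of the 10, had a siEgg interval of -0.54 to 0.15. The closeness in siEgg is therefore finer than these counts resolve and is not read as a trait of the genes. The SD over all genes fell with the length of the longest row, from 1.09 and 0.70 up to 1000 bases, the class of HP1c. From 1000 to 2000 bases, the class of HP1b and HP1a, it was 0.78 and 0.51. It was 0.59 and 0.38 from 2000 to 4000 bases, the class of Su(var)2-10, Su(var)3-3, Su(var)3-9 and egg. Above 4000 bases, the class of G9a, sov and wde, it was 0.43 and 0.28. Neighbours in the siEGFP order, HP1c, HP1b, wde, Su(var)3-3, Su(var)2-10, Su(var)3-9, sov, G9a, egg and HP1a, did not differ beyond counting error. Over all 45 pairs of the 10 genes, the interval of the difference excluded 0 for 17 pairs in siEGFP and for none in siEgg, with no adjustment for the number of pairs. HP1c entered 6 of the 17 pairs, egg, whose value is uncertain, 5, and HP1b, wde and G9a 4 each. The share of such pairs over all genes tested was not computed, so these counts do not set the 10 apart.

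As a group, the 10 genes had a median log2 ratio of 0.15 in siEGFP, against -0.29 for all genes tested, and -0.09 in siEgg, against -0.04. The median change was -0.20, with 7 genes below 0 and 3 above (egg, HP1a and G9a), against 0.22 for all genes. Over all genes tested, 4648 of 12556 changes lay below 0, a split that centring moves. Their summed reads gave 0.16 (-0.02 to 0.34) and -0.12 (-0.31 to 0.06), a change of -0.28 (-0.53 to -0.03). Without HP1c the change was -0.20 (-0.46 to 0.06). Intervals of the sum cover counting error alone and leave out the differences between the 10 genes. A sum also weights genes by their reads, unlike the medians of all genes. All rows together held 35.1% and 33.6% of input reads in siEGFP and siEgg, and 36.8% and 34.6% of ChIP reads. After each ratio was centred on the median gene, which moves siEGFP ratios by 0.29 and siEgg ratios by 0.04, the median ratio of the 10 was 0.45 in siEGFP and the median change -0.45. The sign of 3 single values flipped on centring: sov in siEGFP became 0.23, egg in siEgg 0.03, and the change of G9a -0.09.

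**Figure D3:**
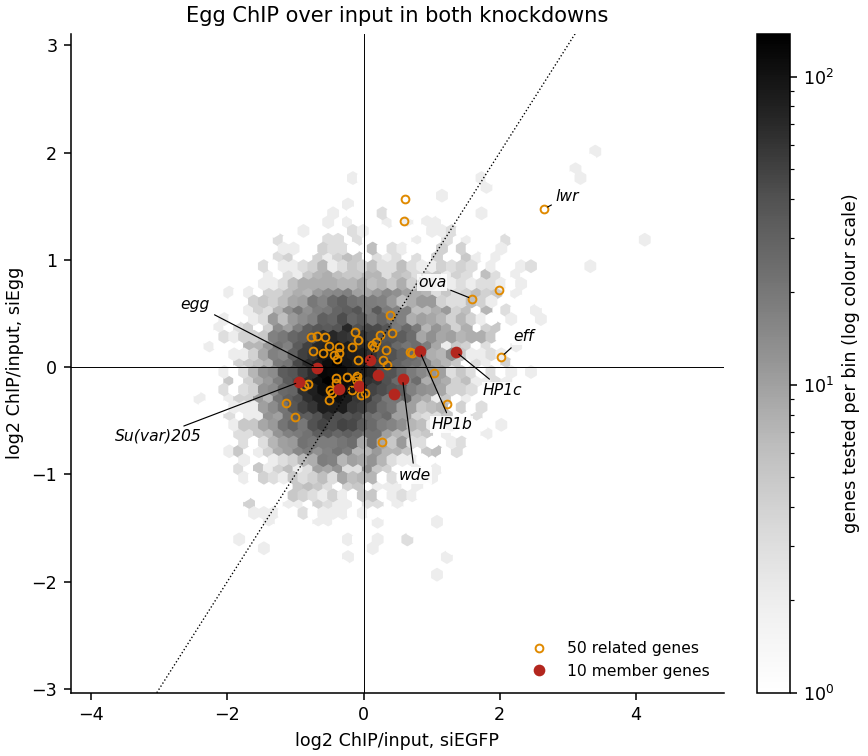
Log2 ChIP/input in siEGFP (x axis) and siEgg (y axis) for the 10 genes (filled), 50 related chromatin genes (open) and all genes tested (grey bins, log colour scale); the dotted line marks equal values. HP1c, at 1.36 and 0.14, lies right of the line, while lwr keeps a ratio of 1.48 in siEgg.

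The inputs gave a measure of how far libraries differ without an antibody. The siEgg input relative to the siEGFP input differed by -0.42 (HP1b) to 0.36 (HP1a) on the log2 scale over the 10 genes, and the interval included 0 for every one of the 10. For the ChIPs compared directly, 6 of the 10 genes were lower and 4 higher in siEgg. The interval lay below 0 for HP1c, HP1b at -1.10 (-2.02 to -0.36) and wde at -0.56 (-1.17 to -0.07), and above 0 for egg at 0.79 (0.13 to 1.68). The value of egg is uncertain, since reads could have been divided between egg and asRNA:CR44067. The matching shares over all genes were not computed. With the 2-fold rule, the ChIPs compared directly gave 615 of 12556 genes lower and 529 higher. Of the 10, that rule called HP1c and HP1b lower.

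The length of a gene's sequence in the table went with its ratio over all genes. In siEGFP the median ratio fell from -0.13 up to 1000 bases to -0.43 above 4000. Of genes with a longest row of up to 1000 bases, 13.3% were enriched in siEGFP, against 6.82% from 1000 to 2000 bases, 3.03% from 2000 to 4000 and 0.891% above 4000. In the same order 6.98%, 9.86%, 7.12% and 4.16% were depleted, and ratios scattered more widely among short genes. HP1c, the 1 enriched member, was the only one of the 10 in the shortest class, at 986 bases, and HP1b, with the next ratio, had 1493 bases. HP1a, with 1109 bases, had the lowest ratio of the 10, so the order of the 10 did not follow length throughout. The part of row length in the value of HP1c was not tested.

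**Figure D4:**
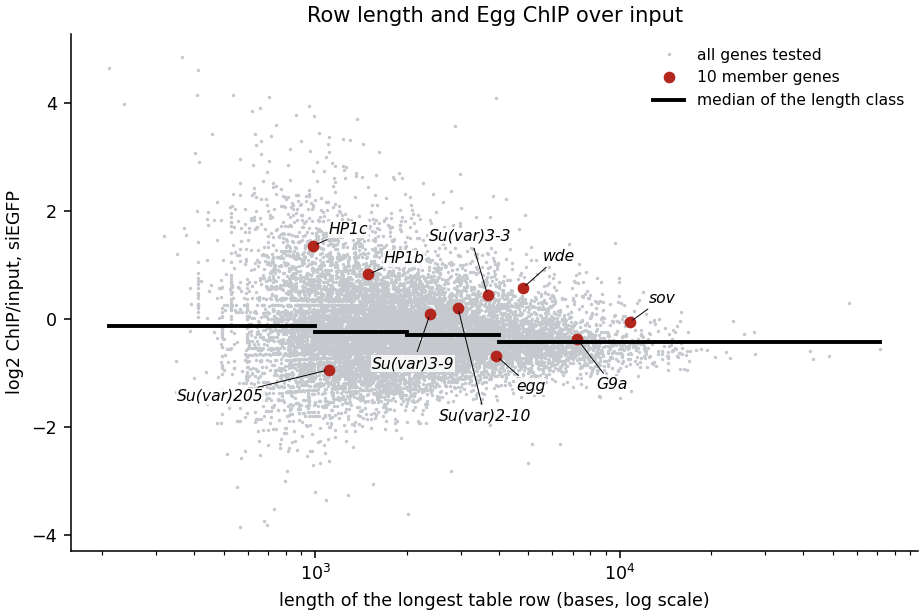
Log2 ChIP/input in siEGFP (y axis) against the length of the longest row of the gene (x axis, log scale) for all genes tested (grey) and the 10 genes (filled), with the median of each of 4 length classes as a line. Ratios scatter more widely among short genes, where HP1c, HP1b and HP1a lie at 1.36, 0.83 and -0.94.

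Of 25 genes beside or overlapping the 10, 20 had enough reads. In siEGFP 4 of these were enriched (5.69% of all genes) and 1 was depleted (7.69%). In siEgg 1, CG17147 beside Su(var)3-3, was depleted (1.17%), and 3 were lower than in siEGFP (3.39%). The 4 enriched neighbours had longest rows of 882 to 1751 bases, in the length classes where 13.3% and 6.82% of genes were enriched, and the counts were not tested against those of the 10 or of all genes. After centring on the median gene, 5 of the 20 were enriched and 0 depleted in siEGFP, and 4 were lower in siEgg. Over all genes tested, centring gave 1163 enriched, 320 depleted and 764 lower. Beside wde, CG12935, 459 bases away, had 17 input and 51 ChIP reads in siEGFP, a log2 ratio of 1.77 (1.05 to 2.75), and 0.34 in siEgg. GstE13, a glutathione S-transferase gene 125 bases from Su(var)2-10, had 1.56 (0.64 to 2.83), and CG3038, 122 bases from G9a, had 1.72 (1.00 to 2.82). The noncoding RNA gene lncRNA:CR43496, inside the span of sov, had 1.43 (0.61 to 2.44), while the summed rows of sov had -0.06. The longest row of sov, at 10768 bases, is shorter than that span, and whether it covers lncRNA:CR43496 is not known.

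The genes beside HP1c had lower ratios, but their intervals overlapped that of HP1c, 0.65 to 2.21, and the differences were not tested. The piRNA pathway gene vret, 39 bases away, had -0.35 (-1.56 to 0.74) in siEGFP, CG17141, which overlaps HP1c by 160 bases, had 0.65 (-0.34 to 1.77), and CG31139 had 0.50 (-0.53 to 1.64). Reads in the overlap could belong to either gene. The neighbours of HP1b, CG7246 and APC4, a subunit gene of the anaphase-promoting complex, had -0.69 and -0.78, on the other side of 0 from HP1b. HP1a overlaps CG8419 by 12 bases, and CG8419 was depleted in siEGFP at -1.15 (-2.09 to -0.53), a call lost on centring.

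**Figure D5:**
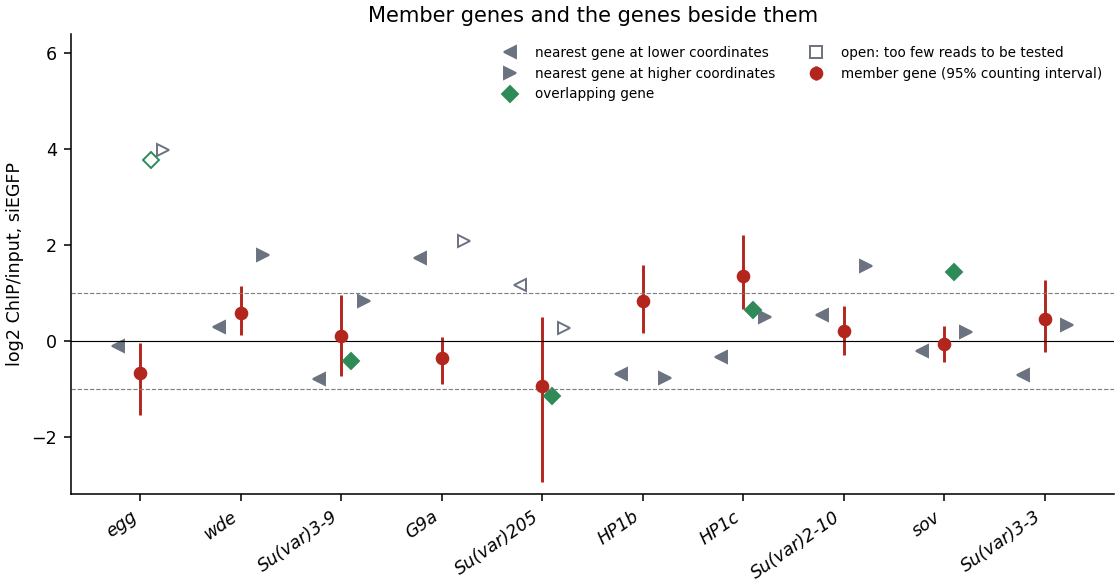
Log2 ChIP/input in siEGFP (y axis) for each of the 10 genes with its 95% counting interval (circles), the nearest gene on each side (triangles) and overlapping genes (diamonds), with open symbols for genes with too few reads to be tested; dashed lines mark the 2-fold limits. Both neighbours of HP1b lie below 0, and the gene at higher coordinates beside wde lies at 1.77.

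Of 51 further genes of heterochromatin and histone methylation, 50 were tested. In siEGFP 6 were enriched (5.69% of all genes) and 2 depleted (7.69%), and in siEgg 2 were enriched (1.31%). In siEgg 4 were lower (3.39%) and 0 higher (5.12%), and after centring on the median gene 5 were lower and 0 higher. In siEGFP centring left 6 enriched and 0 depleted, while the number depleted among all genes went from 965 to 320. Without centring, the median log2 ratio of the 50 genes was -0.10 in siEGFP and 0.12 in siEgg. Of 5 further SUMO pathway genes tested, lwr was enriched. It encodes the SUMO-conjugating enzyme, and went from 30 input to 163 ChIP reads in siEGFP, a log2 ratio of 2.65 (2.15 to 3.34), and from 26 to 56 in siEgg, a ratio of 1.48 (0.85 to 2.27). The change of lwr was called, at -1.18 (-2.05 to -0.31), and the gene remained enriched in siEgg.

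Of 3 further HP1 family genes tested, HP1D3csd had 6 and 8 input reads and 21 and 10 ChIP reads, and so passed the read filter through its ChIP libraries alone. Its value of 2.0 (0.73 to 3.69) in siEGFP, counted among the 6, is a description. The germline HP1 gene rhi, which encodes Rhino, had -0.36. Among 14 genes for HP1 partners Lhr, whose product associates with HP1a at heterochromatin, was enriched at 1.23 (0.20 to 2.60), and XNP, the fly ATRX gene, was depleted at -1.14 (-1.94 to -0.63). Among 15 genes for chromatin modifiers linked to position effect, eff, a ubiquitin-conjugating enzyme gene, was enriched at 2.02 (1.54 to 2.73), ova, also known as Su(var)2-1, at 1.60 (1.07 to 2.35), and Trl, which encodes GAGA factor, at 1.04 (0.50 to 1.88). In the same list D1, an AT-hook protein gene, was enriched in siEgg alone, at 1.37 (0.43 to 2.81). Its input went from 21 reads in siEGFP to 10 in siEgg and its ChIP from 27 to 22, and the difference from its 0.59 in siEGFP was not called. None of 6 further demethylase and deacetylase genes was called, and of 9 genes for other SET-domain methyltransferases 1, NSD, was depleted at -1.01 (-1.74 to -0.52). The depletion calls of XNP and NSD were lost on centring.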

How the data were processed

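The table held 35502 rows, 35327 of them RefSeq transcripts, with 1 value column for each of 4 groups and no replicate number. No header or label in the sources used here names the unit. The deposited values behave as RPKM, reads scaled by row length and library depth by the authors: scaled to 5S rRNA genes of 135 bases, all 34762 rows with a value came out as whole reads within 0.0001. Depths and read counts rest on that anchor. Mapping used Bowtie2 2.2.4 and dm6, per the submitters' processing notes.

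The planned choice between tests fell to ratios with counting intervals, since 1 column per group leaves no replicate spread. Rows were matched to genes by accession or symbol (243 rows unmatched). The 32 rows of the 10 genes were matched, their reads summed per gene and divided by the longest row, a choice made after the table was seen. Row lengths equalled the genomic span for HP1c and were shorter than the span for the other members. Positions are from RefSeq (Release 6, dm6). Log2 ratios used a pseudocount of 0.6 RPKM, the median gene's siEGFP input divided by 10 and rounded. Genes needed 10 reads and an RPKM above the pseudocount in 2 libraries. Ratio intervals are exact (Clopper-Pearson) and leave out the pseudocount. Intervals of changes and of differences between genes used a normal approximation with 0.5 added to counts. Scripts in Python 3.11.15 with scipy 1.17.1 were tested on simulated data.

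All 10 genes were named, with the nearest and overlapping genes, each called gene of 7 lists, and the 3 genes nearest in ratios to an enriched member. The members and lists were chosen with earlier results of these data known. Some genes stand in more than 1 list.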

Additional observations from a re-analysis of the deposited data

Results flagged for a closer look

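Of the 20 neighbours and 50 related genes tested, 7 had a called change between siEgg and siEGFP, at least 2-fold with an interval that excluded 0. All 7 were lower in siEgg. Over all genes tested, 3.39% were called lower and 5.12% higher, and the 7 were not tested against these shares. None of the 10 themselves had a called change, where these shares amount to less than 1 gene each. CG12935, beside wde, changed by -1.43 on the log2 scale. GstE13, beside Su(var)2-10, changed by -2.65 with 5 ChIP reads in siEgg. The noncoding RNA gene lncRNA:CR43496, within sov, changed by -2.18 and had 8 ChIP reads in siEgg. Among related genes, lwr changed by -1.18, Lhr by -1.57, Trl by -1.09 and eff by -1.93. The input of Lhr also differed between knockdowns, with 10 reads in siEGFP and 21 in siEgg. All 7 changes were called from 1 library per group.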

How the results depend on the processing

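No paired analysis was possible because the columns carry no replicate number, and no replicate could be left out for the same reason. Of 298 values of the 10 genes recomputed under 11 alternatives, 296 stayed within their counting interval, 17 changed sign and 12 gained a call. The 296 include values that could not move. Dropping the read filter (30 values), the minimum of 20 input reads (24) and the 1.5-fold threshold (30) leave every ratio as it was. No value lost its call. With a minimum of 20 input reads per library, however, HP1c, at 17 reads in siEgg, was not tested, so that 0 members were enriched. The number of members enriched in siEGFP was 2, adding HP1b, after centring, with the trimmed mean, with pooled inputs and with a 1.5-fold threshold, where egg was the 1 depleted member. The number lower in siEgg went from 0 to 1 (HP1c) with the smaller pseudocount, centring or the trimmed mean, and to 2 (HP1c and HP1b) with pooled inputs or ChIP without inputs. Those last settings give the same change, since a pooled input cancels. The median siEGFP ratio of the members went from 0.15 to 0.45 after centring and 0.47 with the trimmed mean, and the median change from -0.20 to -0.45 and -0.47, by the constant shift these add. With the longest row alone, HP1a and Su(var)2-10 had too few reads, and the medians over the other 8 genes were 0.60 and -0.75, where the same 8 had 0.27 and -0.40 with summed rows. The 2 member values outside their counting interval were both of sov under that setting, 0.59 in siEGFP and a change of -0.96. Reads of sov could have been divided between its rows, so these 2 values are uncertain.

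Counts over all genes moved more. Genes depleted in siEGFP numbered 965, but 282 with the larger pseudocount, 320 after centring 294 with the trimmed mean and 2020 at 1.5-fold. Genes enriched in siEGFP numbered 714, but 1163 after centring and 1202 with the trimmed mean. In siEgg 164 genes were enriched and 147 depleted, 82 and 57 with the larger pseudocount, and 295 and 306 at 1.5-fold. Genes called lower and higher in siEgg were 426 and 643 (39.9% lower), 186 and 81 with the larger pseudocount (69.7% lower), 519 and 973 with the smaller, 764 and 247 after centring (75.6% lower), and 800 and 230 with the trimmed mean (77.7% lower). With that minimum 202 genes were enriched and 626 depleted in siEGFP, 12 and 88 in siEgg, and 183 were lower and 425 higher in siEgg. Depth limits single genes: the change of HP1a is known to 1.77 on the log2 scale either way, and that of sov, with rows summed, to 0.49.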

Other observations

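Next to egg, whose own ratio lay below 0 in siEGFP, Egg ChIP reads were found over sequence with almost no input reads. Lcp9, a larval cuticle protein gene 78 bases beyond egg, had 2 input and 32 ChIP reads in siEGFP, a log2 ratio of 3.97 (2.31 to 7.39), and 4 input and 7 ChIP reads in siEgg. The antisense gene asRNA:CR44067, which overlaps egg over 4191 bases of its span and extends into Lcp9, had 1 input and 21 ChIP reads in siEGFP, a ratio of 3.77 (2.04 to 10.0). Neither gene met the read filter, and both were singled out after their values were seen. DNA reads carry no strand, so reads shared between egg, the antisense gene and Lcp9 cannot be assigned to one of them. CG42376, beside G9a, likewise had 6 input and 23 ChIP reads in siEGFP and was not tested.

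The genes nearest to HP1c in both ratios, among 5893 genes with at least as many reads, were Tmf at 1.32 in siEGFP and 0.12 in siEgg, Gpat4 at 1.35 and 0.08, and CG1737 at 1.29 and 0.15. Likeness was the distance over these 2 log2 ratios, and 44 of the 5893 genes lay within 0.25 of HP1c, so the pair of values was shared by many genes.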
